A study of Arabidopsis thaliana with 6 samples.

Results

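After 12 h in toxic boric acid, a mixed set of 70 genes stood at least 2.86-fold higher in roots of Arabidopsis thaliana seedlings than in control roots. They lie beside a smaller set of late embryogenesis abundant, lipid-transfer, lipase and mitochondrial genes that is left out here by name. The 70 genes were chosen by their values. A gene entered when a probe set annotated to it alone had its lowest value in boric acid above its highest value in control, and a mean difference of at least 1.5 on the log2 scale. Of 13513 probe sets with a single gene, 81 met both conditions (0.599%). The rule leaves out 12 named genes, 11 of which were among the 81, and so 70 genes remained, each measured by 1 probe set. A further 90 probe sets without a gene name and 2 that match several genes met the same conditions and are not described. A single gene was given for 13513 of 22746 probe sets, but only 11 of 100 entries of the pathway lists used below had a named probe set. The functions of the 70 genes therefore need not be those of all raised probe sets.

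Roots came from seedlings grown for 5 days on half-strength Murashige-Skoog medium and moved for 12 h to the same medium with 5 mM boric acid or, as control, without it. The labels name no accession or genotype, and the growth text of the control samples also speaks of boric acid plates, so groups follow the titles and the treatment label. Whole roots of each group were measured on 3 Affymetrix ATH1 arrays, labelled as biological replicates 1 to 3, after total RNA had been labelled from the poly(A) side of the transcripts. In bulk roots, more cells of a type and more RNA per cell cannot be told apart.

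Boron is a micronutrient that plants take up mainly as boric acid, and an excess stunts roots. Boric acid binds molecules with neighbouring hydroxyl groups, such as ribose. Transcript responses to boron excess are known to share genes with drought, abscisic acid and oxidative stress. Among gene classes commonly raised by such stresses are secreted defence proteins, lipid enzymes, proteases and transporters, and the 70 genes are described below by these classes. Functions are textbook knowledge of each gene or family, not measurements.

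The arrays numbered 1 stood apart from the others in both groups. Actin probe sets near the 3′ end of the transcript exceeded those near its 5′ end, a gap that widens as RNA degrades, by 2.96 on boric acid 1 and 2.60 on control 1, and 1.23 to 1.71 on the other 4 arrays. Averaged over the arrays of a group the gap was 1.98 ± 0.87 (SD, n = 3) with boric acid and 1.83 ± 0.70 without (p = 0.7 by a two-sided exact permutation test that cannot go below 0.1), and within same-numbered pairs it was larger with boric acid by 0.36, 0.043 and 0.051. The same gap of the GAPDH probe sets was 1.61, 0.81 and 0.78 in boric acid and 1.89, 1.43 and 0.91 in control, again highest on the arrays numbered 1 but smaller with boric acid in all 3 pairs (exact permutation p = 0.5 unpaired). Of the markers of root cells, 2 of 11 had a named probe set, the root hair expansin genes EXPA7 at 2.89 to 4.41 and EXPA18 at 3.26 to 4.60 over the 6 arrays. EXPA7 had a change of 0.02 ± 0.39 (SE, limma, adjusted p = 0.990). EXPA18 had a change of 0.67 ± 0.22, positive in all 3 pairs, that did not pass without the replicate block (adjusted p = 0.190). It passed with the block (adjusted p = 0.0353), whose pairing was taken from these data. The light-harvesting genes LHCB4.1 and LHCB4.2 were the 2 of 7 green tissue markers measured, at 3.42 to 4.48 and 1.18 to 2.93, with changes of -0.22 ± 0.27 (SE) and -0.99 ± 0.33 that did not pass limma's test (adjusted p = 0.784 and 0.187). Without control 1, LHCB4.2 fell by 1.32 (adjusted p = 0.0350). The part of these markers in the results was not tested.

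All values below are log2 expression as deposited, and groups of values are given in the order of replicates 1, 2 and 3. Differences are mean boric acid minus mean control. Because these differences chose the genes, they are a description and carry no test. Over all 22746 probe sets, 10.9% had the lowest boric acid value above the highest control value, and the median change was -0.01. By limma at an adjusted p under 0.05, 1.92% of probe sets were higher in boric acid, and 5.3% when the replicate number was a block. The same contrast counted 48 of the 70 genes as called without the block and 70 with it, and nothing is read from these counts, since the contrast had chosen the genes. The 70 differences ran from 1.52 to 4.00, with a median of 1.89, which is 3.71-fold. Control means were under 1 for 12 of the 70 genes and under 1.5 for 21. In AT5G59845, AT1G02660 and AT1G09310 a control value was at or below 0.217, the highest value of control probe sets that match no plant transcript. For genes with low controls, the fold and the evenness of the controls may depend on the background, which was not tested.

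**Figure D1:**
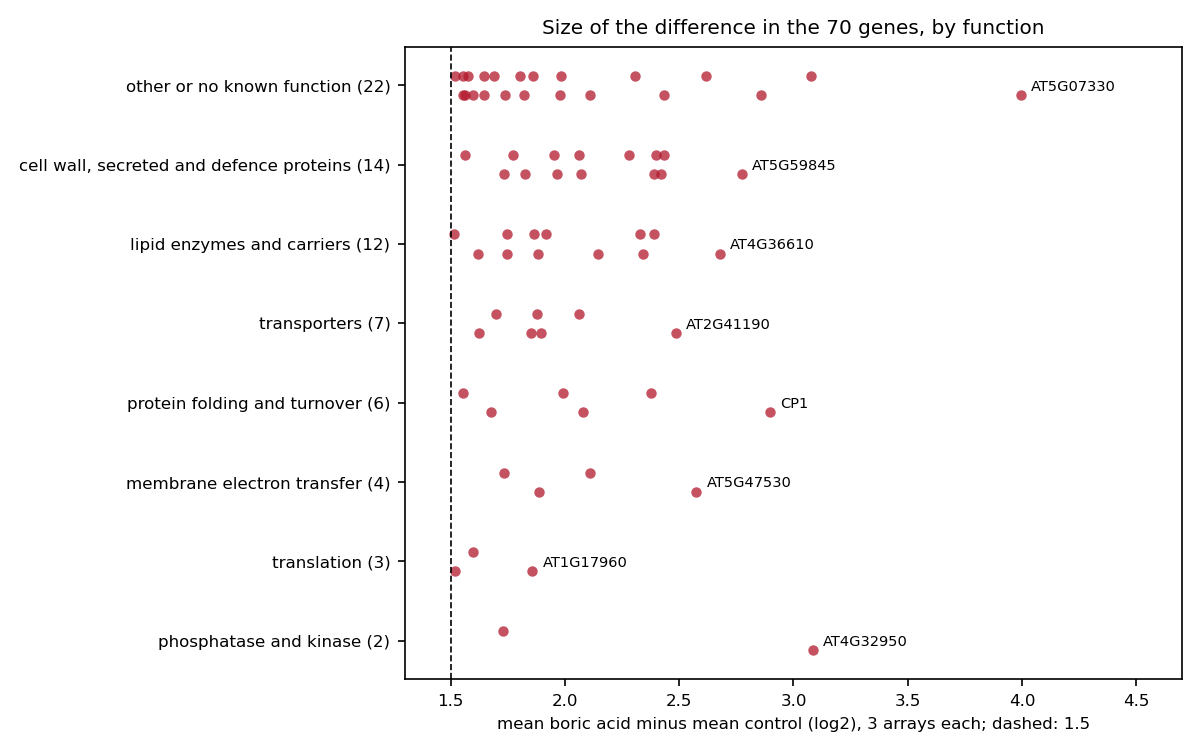
Mean boric acid minus mean control (log2, 3 arrays each) of each of the 70 genes, 1 point a gene, in rows by function with the number of genes in brackets and the gene with the largest difference named. The dashed line is the 1.5 of the rule; AT5G07330 at 4.00 lies apart from the rest, all at 3.08 or less.

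The largest difference belonged to AT5G07330, a gene without a known function. It stood at 4.79, 5.88 and 5.83 in boric acid and 0.74, 1.79 and 1.98 in control. Both arrays numbered 1 were the lowest of their groups, and the 3 differences between same-numbered arrays, 4.05, 4.09 and 3.85, were close to each other. AT4G32950, of the protein phosphatase 2C family, followed with 3.42, 5.12 and 4.22 in boric acid and 1.099, 1.46 and 0.94 in control. It is not on the list of abscisic acid phosphatases named further below. Its controls lay close together, while boric acid 1 was the lowest treated array and boric acid 2 the highest, and the mean difference was 3.08 (8.48-fold). The other gene of the phosphatase and kinase class, the protein kinase gene AT2G39110, stood at 6.41, 6.59 and 5.89 in boric acid and 4.87, 4.45 and 4.40 in control, well expressed in both groups, and differed by 1.73.

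Among genes of protein folding and turnover, 6 met the rule. CP1, a papain-type cysteine protease of the RD21A kind, stood at 4.77, 5.55 and 4.45 in boric acid and 2.35, 2.16 and 1.57 in control. Its difference of 2.90 (7.45-fold) had a gap of 2.11 between the lowest treated and the highest control array. The subtilase SBT3.5, a secreted serine protease that processes a pectin methylesterase, was even in boric acid but not in control, at 4.25, 4.32 and 4.37 in boric acid and 3.05, 1.35 and 2.57 in control. The control 2 value was the low one, and the difference was 1.99. AT1G52560, of the small heat shock protein family of chaperones, stood at 3.01, 3.55 and 2.45 in boric acid and 0.32, 0.86 and 0.70 in control, low on all control arrays and well apart from them in boric acid. AT2G20560, a DnaJ-type co-chaperone, had 3.84, 3.70 and 2.95 in boric acid and 2.71, 1.31 and 1.44 in control. Here control 1 lay close under boric acid 3, so that only 0.24 separated the groups. Of the RING-type proteins, a class with many ubiquitin ligases, AT5G55970 and AT1G75400 differed by 2.08 and 1.56. AT5G55970 stood at 4.24, 5.41 and 5.31 in boric acid and 1.59, 3.15 and 3.98 in control, with both arrays numbered 1 the lowest of their groups and the widest control spread but for AT1G54540, an SD of 1.21.

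A list of proteases written beside this class, papain-type enzymes and vacuolar processing enzymes, had 4 members with a named probe set out of 11. BETA-VPE, the vacuolar processing enzyme best known from seeds, stood at 2.75, 2.96 and 2.62 in boric acid and 1.49, 1.40 and 1.48 in control, with all treated arrays above all control arrays, and rose by 1.32 ± 0.12 (SE, limma, adjusted p = 0.00751). Leaving out any 1 array left the call in place (adjusted p from 0.00986 to 0.0437). ALPHA-VPE, its counterpart in vegetative tissue, had a change of 0.78 ± 0.25 that did not pass (adjusted p = 0.180). It passed with the replicate block (adjusted p = 0.0269), whose pairing was taken from these data. GAMMA-VPE had a change of 0.13 ± 0.20 (adjusted p = 0.835). Beside these, 1.92% of all probe sets rose.

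Transporters made up 7 of the 70 genes and included some of the most even values. AT2G41190, a member of the amino acid transporter family of vacuole and other membranes, stood at 4.31, 4.55 and 3.84 in boric acid and 1.65, 1.97 and 1.64 in control, a difference of 2.48 (5.60-fold). AT5G65990, of the same family, was at 2.70, 3.01 and 2.74 in boric acid and 0.86, 1.08 and 0.83 in control. Its arrays lay within 0.31 of each other in boric acid and within 0.25 in control, and the means differed by 1.90. OCT1, an organic cation transporter that carries carnitine, stood at 1.82, 2.85 and 3.05 in boric acid and 0.51, 0.47 and 0.56 in control. Its controls were almost equal but under the array medians of 1.45 to 1.49, and boric acid 1 lay below the other treated arrays. The major facilitator gene AT2G16660 stood at 3.99, 3.76 and 4.29 in boric acid and 2.05, 2.06 and 2.29 in control, a difference of 1.88. The facilitator gene AT2G16990 (1.62), the peptide and nitrate transporter family gene AT2G40460 (1.70) and the cation efflux gene AT1G79520 (1.85) complete the class. The gap between the groups, positive by the rule itself, was 0.68 to 1.87 in the 7 transporters and 0.07 to 2.80 over all 70 genes.

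Membrane proteins that pass electrons gave 4 genes. AT5G47530 and AT4G17280 both join a DOMON domain to a cytochrome b561, a design thought to move electrons from ascorbate across the plasma membrane. AT5G47530 stood at 4.19, 4.62 and 3.95 in boric acid and 2.14, 1.63 and 1.27 in control, and AT4G17280 at 5.41, 6.41 and 5.86 in boric acid and 3.87, 3.72 and 3.76 in control. Their differences were 2.57 and 2.11, and the controls of AT4G17280 lay within 0.15 of each other. AT1G19230, a respiratory burst oxidase homologue that makes superoxide outside the cell, had 3.14, 3.39 and 3.07 in boric acid and 1.60, 1.39 and 0.96 in control, a difference of 1.89 with little spread in boric acid. The third cytochrome b561 gene, AT1G14730, stood at 5.35, 5.45 and 5.57 in boric acid and 2.96, 3.99 and 4.22 in control, even in boric acid and lowest on control 1.

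Relatives of these genes, listed after the 70 genes were known, mostly did not pass. Of 7 other measured genes with the DOMON and cytochrome b561 design, AT2G04850 rose by 0.88 ± 0.11 (SE, limma, adjusted p = 0.0142) and 6 did not pass, at changes of -0.30 to 0.25. Leaving out any array but control 1 ended the call of AT2G04850 (adjusted p from 0.0206 without control 1 to 0.0647). The 2 other measured respiratory burst oxidase genes did not pass, with AT4G25090 at 1.52, 2.44 and 1.60 in boric acid and 3.54, 3.07 and 2.38 in control and a change of -1.14 ± 0.36 (adjusted p = 0.172). Of 6 other subtilases, 2 other organic cation transporters and 4 other plant defensins that were listed and measured, none passed by limma on all arrays, with the block or without. The subtilase list held only 7 genes, and the lists need not hold whole families. Over all 6 family lists, 1 of 21 such relatives passed, where 3.25% of all probe sets passed in either direction. An unadjusted p under 0.05 was found for 4 of the 21, against 16.7% of all probe sets, and 3 of these 4, AT4G25090, SBT4.12 (-0.76) and PDF2.5 (-0.73), had negative changes. Of these, SBT4.12 passed in 1 of the 6 fits without 1 array, that without control 1 (adjusted p = 0.0454). Whether a gene of the 70 differed from its relatives was not tested, since its difference had chosen it.

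**Figure D2:**
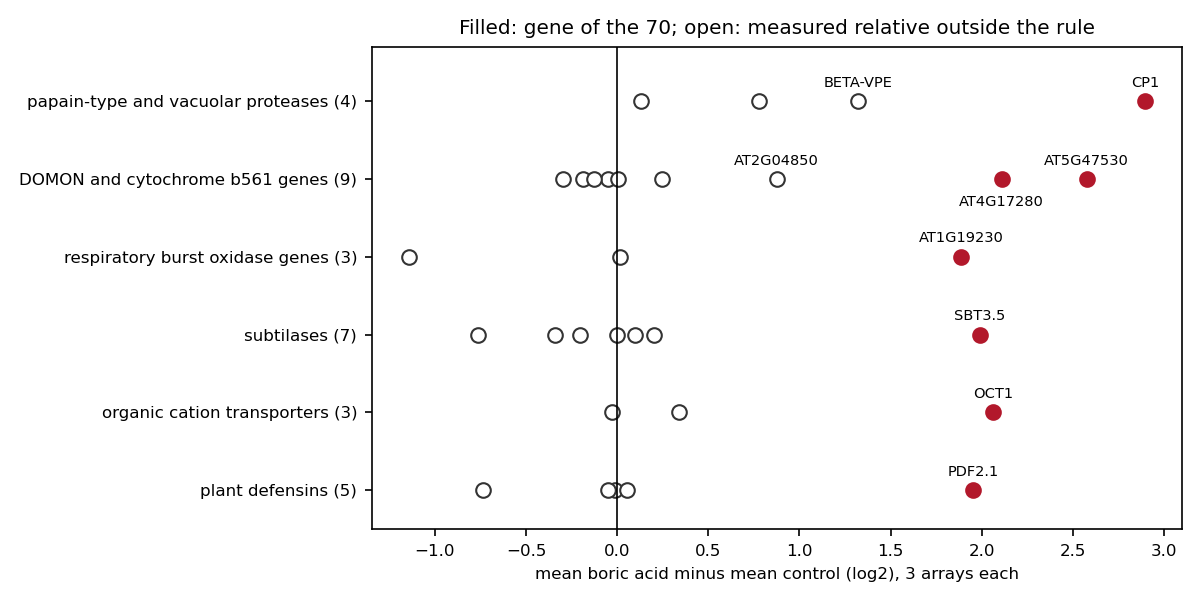
Mean boric acid minus mean control (log2, 3 arrays each) of the measured genes of 6 families or lists, with the number of genes in brackets; filled points are genes of the 70, open points are relatives outside the rule. Named open points are the relatives past limma's threshold, BETA-VPE at 1.32 and AT2G04850 at 0.88.

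The lipid class held 12 genes. AT3G53980, of the lipid-transfer protein superfamily, was the steadiest of the larger differences, at 8.66, 8.85 and 8.64 in boric acid and 6.21, 6.56 and 6.21 in control. Its difference was 2.39 (5.24-fold), with an SD of 0.12 among treated arrays and 0.20 among controls. AT3G22620, of the same superfamily, was also high in both groups, at 8.14, 8.80 and 7.98 in boric acid and 6.51, 5.82 and 5.57 in control, a difference of 2.34. AT2G48130 is LTPG15, a membrane-anchored carrier of that superfamily linked to suberin of the seed coat, and differed by 1.62. A pair of plastid lipases known in Arabidopsis to be induced by abscisic acid was also found. AT1G02660 (PLIP2) stood at 2.27, 2.85 and 1.97 in boric acid and 0.54, 0.62 and 0.18 in control, near background on control 3, and AT3G62590 (PLIP3) at 3.30, 3.07 and 1.97 in boric acid and 1.90, 0.95 and 0.95 in control. PLIP3 had the smallest difference of the 70, 1.52, and only 0.07 separated boric acid 3 from control 1. Of the alpha/beta hydrolases, AT4G36610 led with 6.31, 6.69 and 5.88 in boric acid and 4.49, 2.998 and 3.36 in control, a difference of 2.68. AT1G73480 followed with 3.83, 3.32 and 3.61 in boric acid and 1.85, 0.76 and 1.16 in control, control 1 being the highest control and the difference 2.33, before AT1G23330 (1.74). The GDSL lipase gene AT1G74460 differed by 1.86. AT4G23680 and AT3G26460, of a superfamily of small lipid-binding proteins, differed by 2.14 and 1.75. GPDHC1, the cytosolic glycerol-3-phosphate dehydrogenase that links lipid precursors to NADH balance, stood at 5.87, 6.14 and 5.40 in boric acid and 4.37, 3.32 and 4.07 in control.

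Genes of the cell wall, of secreted proteins and of defence were the largest class of known function as placed by hand, with 14 genes. The share of each class among all genes was not taken, so nothing is read from class sizes. The defence proteins included a defensin, chitinases and lectins. PDF2.1, a small secreted defensin, stood at 5.80, 6.63 and 6.17 in boric acid and 4.15, 4.24 and 4.36 in control, with controls that lay within 0.21 of each other and a difference of 1.95. ChiC, a class V chitinase, had 4.08, 5.06 and 4.87 in boric acid and 2.82, 1.82 and 3.16 in control, and the chitinase gene CHI had 4.75, 5.27 and 4.67 in boric acid and 4.01, 2.65 and 2.81 in control. For both, the controls spread more than the treated arrays, with control 2 the lowest. EULS3, a lectin of the Euonymus type that is known to respond to abscisic acid and osmotic stress, was at 5.60, 6.11 and 5.80 in boric acid and 3.97, 3.55 and 3.14 in control, a difference of 2.28 (4.86-fold). AT5G28520, of the jacalin lectins, differed by 1.56. AT1G54540, related to the defence genes NDR1 and HIN1, stood at 6.43, 6.65 and 5.30 in boric acid and 5.14, 3.12 and 2.82 in control. Control 1 was far above the other controls, and although the difference was 2.44 only 0.16 separated the groups. AT1G30700, a berberine bridge enzyme-like oxidase, differed by 1.83, and the glycosyl hydrolase family 17 gene AT5G55180 by 2.06.

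Of the wall genes and others of the same class, AT5G59845 belongs to the gibberellin-regulated GASA family of small secreted peptides. It was near background in control and clearly above it in boric acid, at 3.22, 3.34 and 2.19 in boric acid and 0.10, 0.07 and 0.26 in control. Control probe sets that match no plant transcript reached 0.217, so its fold of 6.83 may depend on the background, which was not tested. The class III peroxidase gene AT1G68850 stood at 6.54, 6.63 and 6.001 in boric acid and 4.93, 3.17 and 3.88 in control, and CCR2, a cinnamoyl-CoA reductase of stress-induced lignin, at 3.91, 3.60 and 3.18 in boric acid and 2.60, 1.52 and 1.25 in control. In both genes control 1 was more than 1 unit above the other controls. AT1G76470, a reductase of a related fold, stood at 3.55, 2.96 and 3.38 in boric acid and 1.03, 0.39 and 1.21 in control, lowest on array 2 in both groups, a difference of 2.42 with all 3 same-numbered differences between 2.17 and 2.57. AT2G41810, a DUF642 protein of the wall, stood at 3.52, 4.51 and 5.38 in boric acid and 1.49, 1.92 and 2.83 in control. Here both groups were lowest on array 1 and highest on array 3, and the same-numbered differences, 2.03, 2.59 and 2.55, varied less than the groups did. The hydroxyproline-rich glycoprotein gene AT2G22510 differed by 1.97.

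**Figure D3:**
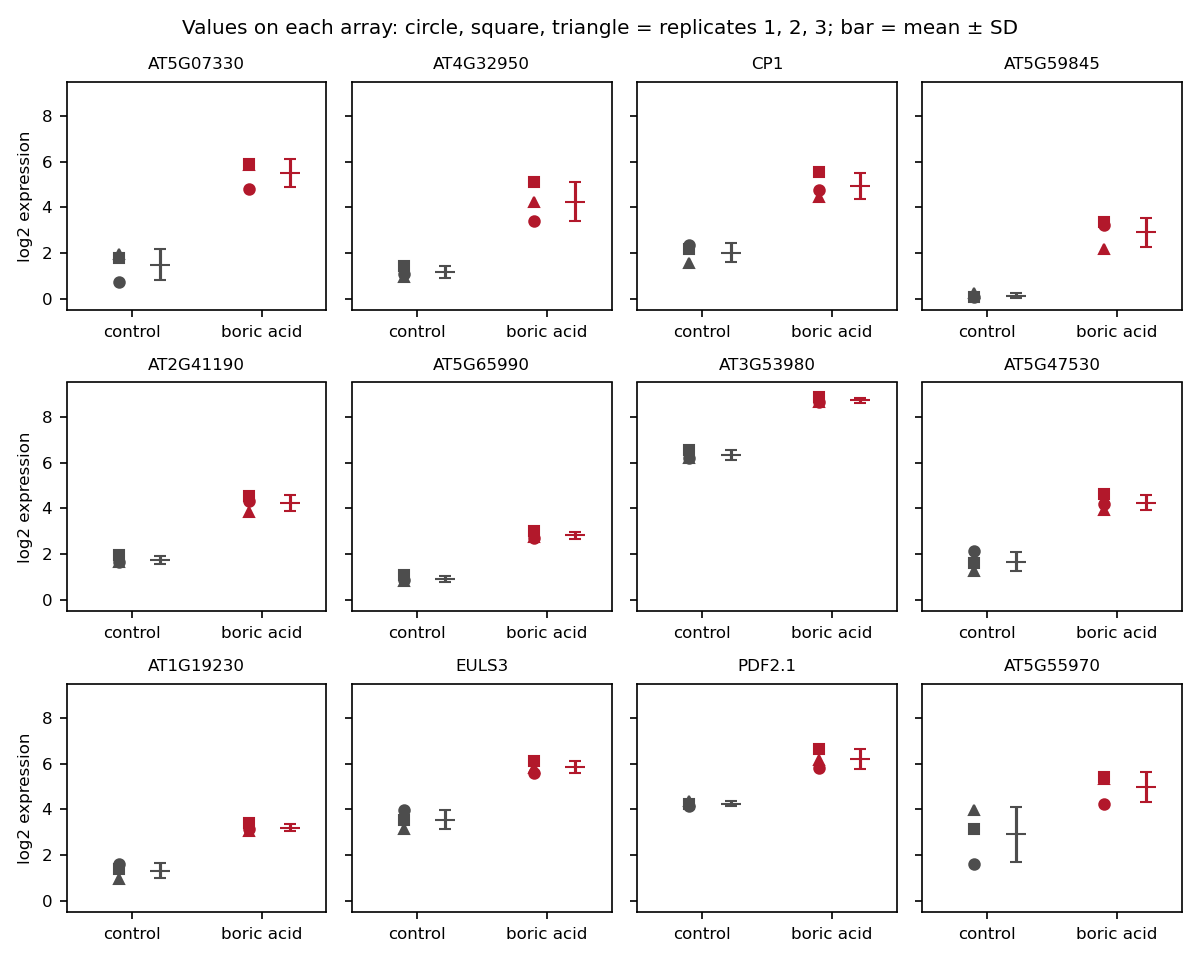
Log2 expression on each array for 12 of the 70 genes, with control in grey and boric acid in red; symbols give the replicate number and bars the mean ± SD (n = 3). AT3G53980 lies at 6.21 to 6.56 in control and 8.64 to 8.85 in boric acid, while AT5G55970 spreads from 1.59 to 3.98 in control.

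Translation gave 3 genes. AT1G17960, related to threonyl-tRNA synthetases, stood at 3.15, 2.83 and 2.58 in boric acid and 0.80, 0.64 and 1.56 in control, a difference of 1.86 with control 3 the highest control. AT4G11160, related to bacterial initiation factor IF-2, had 3.74, 4.25 and 4.13 in boric acid and 2.11, 2.32 and 2.90 in control, lowest on array 1 in both groups, and differed by 1.60. The gene rps16, for a ribosomal protein, is encoded in the plastid genome and stood at 1.72, 2.89 and 2.26 in boric acid and 1.07, 0.49 and 0.75 in control. As the RNA was labelled from the poly(A) side, how far these values reflect the amount of a plastid transcript was not tested. Boric acid 1 lay nearest to the controls, and the same-numbered difference was 0.65 for replicate 1 and 2.40 for replicate 2.

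The remaining 22 genes had other or no known functions, and 5 of the 12 largest differences came from them. After AT5G07330 these were AT3G51750, AT5G66780, AT1G24600 and AT4G24130. AT3G51750 stood at 5.60, 4.56 and 3.71 in boric acid and 2.39, 1.29 and 0.95 in control, highest on array 1 and lowest on array 3 in both groups. AT5G66780 had even but low controls and a high value on boric acid 1, at 4.68, 3.15 and 3.32 in boric acid and 0.76, 0.87 and 0.96 in control. AT1G24600 stood at 3.73, 5.08 and 3.24 in boric acid and 0.46, 2.19 and 1.55 in control, with boric acid 2 and control 2 the highest. AT4G24130 and AT1G09310, both of the DUF538 family, differed by 2.43 and 1.80. In AT1G05340, a cysteine-rich transmembrane module protein of a family raised by stress in plants, the arrays were among the most even, at 8.17, 8.03 and 8.03 in boric acid and 6.39, 6.67 and 6.37 in control. AT5G39520 (1.98), AT3G50910 (1.86), AT5G46620 (1.69) and AT4G17215 (1.65) were similarly even, with group SDs of 0.22 or less. AT2G43390, AT1G56320, AT5G57340, AT2G34340 and AT3G48510 had differences of 1.74 to 2.31. AT1G49450, AT3G25640, AT3G19900, AT5G02230, AT3G06210 and AT2G16760 had 1.52 to 1.64. AT2G34340, of the DUF584 family, and AT1G49450, a protein with WD40 repeats, were both highest on boric acid 2, at 4.49 and 3.57, and at 1.95 to 3.68 on the other treated arrays.

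For the 70 genes, the arrays of a group were not equally often the highest or lowest. The genes were chosen on these same values, unlike the probe sets as a whole. The shares are therefore a description and are not read as a trait of the genes. Control 1 was the highest control array for 38 of them (54.3%), against 36.5% of all probe sets, and boric acid 2 was the highest treated array for 42 (60.0% against 28.3%). Boric acid 3 was the lowest treated array for 38 (54.3% against 33.8%). In the lipid class control 1 was the highest control for 10 of 12 genes, in the wall and defence class for 8 of 14, and among genes of other or no known function for 8 of 22. Control 1 exceeded both other controls by at least 1 unit in 13 genes, among them AT1G54540, AT4G24130, AT3G26460, AT1G68850 and AT4G23680. It lay at least 1 unit below both in 5 genes, AT5G07330, AT1G24600, AT5G55970, AT2G34340 and AT1G14730. The actin and GAPDH gaps were both highest on the arrays numbered 1 of each group, and their part in these patterns was not tested.

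In part of the genes, the arrays numbered 1 held the same place in both groups. Both arrays numbered 1 were the highest of their groups in 13 genes and the lowest in 11. The difference between same-numbered arrays had a median of 1.63 for replicate 1, 2.39 for replicate 2 and 1.88 for replicate 3 over the 70 genes, against medians of 0.01, -0.03 and -0.01 over all probe sets. In the 70 genes these differences are positive by the rule itself, so nothing is read from that contrast. The same-numbered difference was smallest for replicate 1 in 41 of the 70 genes, and at least 1.5 for all 3 replicates in 35. For the counts of 13, 11, 41 and 35 genes the share over all probe sets was not taken, so nothing is read from them. Without both arrays numbered 1, the differences ran from 1.39 to 3.97 with a median of 2.06, and 68 of the 70 genes stayed at or above 1.5, the exceptions being AT1G14730 and AT3G06210.

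**Figure D4:**
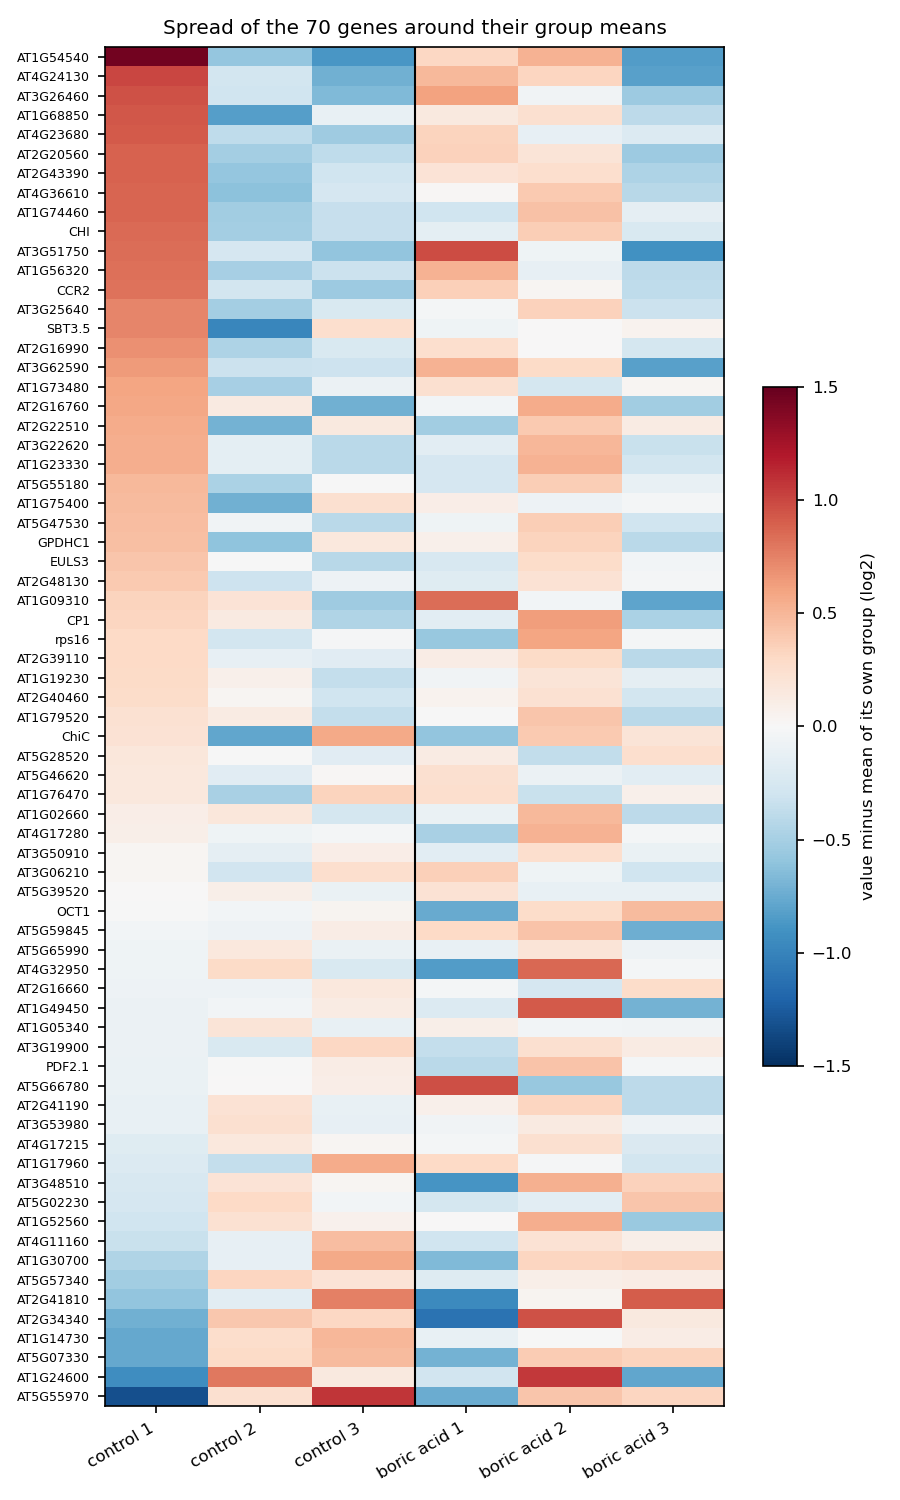
Each value minus the mean of its own group (log2) for the 70 genes in rows and the 6 arrays in columns, sorted by control 1, with red above and blue below the group mean and the colour scale ending at 1.5 either way. Control 1 lies below its group mean for 26 genes, furthest for AT5G55970, and above it for 44.

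Near the 1.5 of the rule, the smallest differences inside were those of AT3G62590 (1.515), AT2G16760 (1.517) and rps16 (1.520), and the largest outside those of AT5G47635 (1.482), AT5G12420 (1.478) and AT2G43670 (1.463). Another 5 single-gene probe sets had a mean difference of at least 1.5 but overlapping groups. The largest of these, chosen after its values were seen, was AT5G15950, a gene for the polyamine enzyme S-adenosylmethionine decarboxylase. It stood at 7.11, 4.08 and 3.63 in boric acid and 7.10, 0.99 and 1.24 in control, with both arrays numbered 1 far above the others.

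In the order of protein-coding genes of the reference assembly, none of the 69 nuclear genes among the 70 was directly beside another. The closest were EULS3 and AT2G39110, 5 places apart, AT2G16660 and AT2G16760, 8 apart, and AT4G17215 and AT4G17280, 9 apart. All 70 probe sets were of the type designed to match 1 transcript.

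Other pathways that stress raises were followed with 8 lists holding 100 entries, of which 11 had a named probe set, CP1 among them. The lists of abscisic acid phosphatases, of its bZIP factors and kinases, of its responsive genes, and of heat shock genes had no named probe set, so nothing can be said of them here. Of the 10 measured genes that are not among the 70, BETA-VPE rose, none fell (1.34% of all probe sets fell), and 3 had an unadjusted p under 0.05, against 16.7% of all probe sets. OLEO3, an oil body protein of seeds, was low in both groups at 0.60 to 0.86 (change -0.09 ± 0.11, SE, limma, adjusted p = 0.780). ALDH7B4, an aldehyde dehydrogenase of osmotic stress, had a change of 0.29 ± 0.15 (adjusted p = 0.403). The largest change among 5 genes of amino acid breakdown and sugar starvation was 0.64 ± 0.24 for D2HGDH, a dehydrogenase of the lysine and branched-chain routes (adjusted p = 0.247).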

How the data were processed

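Total RNA of roots was measured on 6 Affymetrix ATH1 arrays, 3 for each group. RMA is the method that the submitters' processing notes name for the arrays; its version and parameters are not given in the sources used here. The deposited values are log2 expression per probe set. Hybridization controls cre and bioB differed by 5.43 to 6.02 on all arrays. Array medians lay between 1.45 and 1.49 and the lowest value was -0.38, and the step that set this baseline is not given. Arrays have no depth, and their number limits the precision.

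Of 22810 probe sets, 64 controls were set aside and 22746 tested. A table of the array's probes and RefSeq genes of TAIR10.1 gave a single gene for 13513, several for 503 and none for 8730. Genes were placed in 8 function classes by hand from background knowledge, since the tables hold no descriptions. Boric acid was compared with control in limma 3.58.1 (R 4.3.3), two-sided, with Benjamini-Hochberg adjustment over all 22746 probe sets and a threshold of 0.05. The fit was tested on simulated data. Figures were drawn with matplotlib 3.10.9. For genes with several probe sets the one with the highest mean stood for the gene in lists.

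Both groups carry replicate numbers 1 to 3. Deviations from the group means correlated at 0.608, 0.231 and 0.618 for same-numbered arrays and at -0.619 to 0.284 for differently numbered ones. All 3 pairs exceeded 0.1, so the numbers were taken to pair the arrays, a pairing that comes from the data and not from the labels. Boric acid 3 with control 2 reached 0.284, above the 0.231 of replicate 2, so this limit does not single out the numbering. The arrays numbered 1 also shared the highest actin and GAPDH gaps, whose part in the correlations was not tested. A fit with the replicate block was the alternative. Others were leaving out each array, quantile normalization, median centring, a filter on low means and an intensity trend. Leaving out both arrays numbered 1 was added after seeing the data.

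The genes and lists were chosen with earlier results of these data known. Every gene of the 70 is named. Values on each array are given for up to 4 genes a class with the largest differences and for others with a known role or family, these last chosen after their values were seen. Of each list the genes past the threshold and the one with the largest change are named, and 3 genes on each side of the 1.5 limit. Family relatives were listed after the 70 genes were known. Shares of promoter motifs were planned and not run, as no promoter sequences were used here.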

Additional observations from a re-analysis of the deposited data

How the results depend on the processing

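The count of probe sets past the threshold in limma was 740, and 2081 with the replicate block. Leaving out 1 array gave 70 to 1129, the lowest without boric acid 2 and the highest without control 1, and leaving out both arrays numbered 1 gave 1604. Under the other alternatives it was 631 to 764. The rule gave 70 genes, 68 after quantile normalization or median centring, both without AT2G16760 and AT3G62590. It gave 61 to 107 without 1 array, 102 without both arrays numbered 1, 199 at a limit of 1 and 28 at a limit of 2. Of the 70 genes themselves, 60 to 68 still met the rule without 1 array, the fewest without boric acid 2 or control 2. The 70 differences were 1.16 to 4.35 without 1 array, positive by the rule itself. Of the 11 measured list genes 2 passed, CP1 (chosen by this contrast) and BETA-VPE, 3 with the replicate block and 1 to 2 without 1 array. The actin difference of 0.15 ranged from -0.34 to 0.54 without 1 array and was 0.05 without both arrays numbered 1. Of the 35 list and family genes outside the rule, 14 had changes of either sign among the fits without 1 array, none of them past the threshold. Of the genes whose change is printed, the sign turned for EXPA7 (0.022, and -0.024 after quantile normalization, -0.26 without both arrays numbered 1 and -0.40 to 0.36 without 1 array), for GAMMA-VPE (0.13, and -0.042 to 0.25 without 1 array) and for LHCB4.1 (-0.22, and -0.40 to 0.036 without 1 array). The causes were not tested. The replicate block moved ALPHA-VPE and EXPA18 (adjusted p = 0.0353) past the threshold. It also moved AT5G47635 and AT2G43670, just under the 1.5 of the rule, and AT1G58170, with a difference of 1.70 but overlapping groups. AT5G47635, AT2G43670 and AT1G58170 were named for the size of this same contrast, so nothing is read from their calls. Promoter motif shares were not run.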
